A study of Mus musculus with 9 samples.

Results

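The genes described here are 9 members of the Notch pathway: the receptor genes Notch1 and Notch2, the ligand genes Dll1, Dll4, Jag1 and Jag2, the nuclear effector gene Rbpj, and the target genes Hes1 and Nrarp. They were taken by symbol from a table of 24505 genes, and all 9 passed the filter on low values that left 16563 genes for testing. Of the regions that differed in H3K27me3, 11 of 35798 higher in RANKL and 5 of 13607 higher in WENRC carried the name of a member. Transcription was measured by GRO-seq, which sequences RNA made by engaged polymerase in isolated nuclei, in organoids (mini-guts) from mouse duodenum. There were 2 libraries of each of 3 cultures: RANKL, labelled intestinal M cell (the cell that carries antigens from the gut lumen to lymphoid tissue); ENRI, labelled enterocyte; and WENRC, labelled intestinal stem cell. H3K27me3, the histone mark laid down by Polycomb repressive complex PRC2, was measured by ChIP-seq in 1 WENRC library and in 2 RANKL libraries that the authors pooled. The ENRI and WENRC libraries of 1 number came from 1 mouse per the labels, whereas the RANKL libraries carry only a replicate number. Nothing in the labels says that the RANKL libraries came from separate animals, so p-values measure the spread between these libraries, which may be technical. The culture names are used as the labels give them, without spelling them out. Strain, age and sex of the mice and any genetic change are not given in the sources used here.

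Notch signalling passes between touching cells. A Delta-like or Jagged ligand on 1 cell binds a Notch receptor on its neighbour, proteases of the ADAM family and then gamma-secretase cut the receptor, and the freed intracellular part joins the DNA-binding protein Rbpj and a Mastermind coactivator to switch on genes such as Hes1 and Nrarp. In the intestinal crypt, active Notch keeps progenitors out of the secretory lineages, chiefly because the Hes1 repressor holds down Atoh1, while secretory cells, Paneth cells among them, display Dll1 and Dll4 to the stem cells beside them.

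For 8 of the 9 members a RefSeq promoter window was found (build GRCm38.p6); Hes1 was not matched. The 250 bases upstream of the start are shown for 3 members. Notch1 and Jag2 are shown because an H3K27me3 region higher in RANKL lay across their annotated starts, and capitals mark the CpG dinucleotides, which are dense at promoters that carry this mark. Rbpj is shown because it was transcribed more in RANKL than in both other cultures and its promoter was the only one of the 8 with a match to TGGGAA, the core letters that the Rbpj protein reads; capitals mark TGGGAA and its other-strand form TTCCCA.
Notch1 (chr2:26503823-26504072, minus strand): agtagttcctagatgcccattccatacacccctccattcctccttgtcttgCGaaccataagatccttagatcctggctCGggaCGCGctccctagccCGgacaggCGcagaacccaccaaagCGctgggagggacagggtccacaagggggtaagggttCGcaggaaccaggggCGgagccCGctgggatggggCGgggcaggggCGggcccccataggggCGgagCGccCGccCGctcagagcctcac
Jag2 (chr12:112929496-112929745, minus strand): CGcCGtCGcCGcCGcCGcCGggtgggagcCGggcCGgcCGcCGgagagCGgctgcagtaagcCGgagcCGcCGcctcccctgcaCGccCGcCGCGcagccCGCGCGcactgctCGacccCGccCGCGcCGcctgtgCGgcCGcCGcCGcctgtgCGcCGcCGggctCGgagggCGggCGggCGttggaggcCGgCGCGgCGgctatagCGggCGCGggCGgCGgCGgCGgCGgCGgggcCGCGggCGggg
Rbpj (chr5:53590096-53590345, plus strand): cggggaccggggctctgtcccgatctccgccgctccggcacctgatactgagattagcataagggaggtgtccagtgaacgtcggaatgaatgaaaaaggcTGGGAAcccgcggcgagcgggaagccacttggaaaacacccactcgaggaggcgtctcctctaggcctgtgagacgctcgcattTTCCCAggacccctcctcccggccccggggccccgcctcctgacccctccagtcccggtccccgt

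The Notch1 stretch holds 16 CpG dinucleotides and the Jag2 stretch 54, against a median of 6 over 32851 windows of the same length. As many as in Jag2 were found in 5 windows, and as many as in Notch1 in 8356. Members without a region across the start held 34 (Notch2), 20 (Jag1), 18 (Nrarp) and 14 (Dll4). The windows of Rbpj held 21 and 25, and those of Dll1 21 and 13. Notch1 thus lay within the range of these members. The Rbpj stretch holds 2 TGGGAA matches. A second, overlapping Rbpj window holds 1, while 21.6% of all windows hold at least 1. The GRO-seq gene positions are of another build. Whether either window lies at the start of the Rbpj transcript measured by GRO-seq was not checked. The longer GTGGGAA, searched on both strands and containing the shorter word, was in no member window and in 5.42% of all windows. CACNAG, the N box read by Hes proteins, was in the windows of Nrarp (2 matches), Notch1, Notch2 and Dll4 (1 each), and in 36.7% of all windows. A match is a string of letters and not a measured binding site.

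GRO-seq levels below are on the log2 scale that the authors deposited after normalizing the libraries. Differences are log2 differences of culture means from a limma fit over all 6 libraries, and a gene was called at a false discovery rate (FDR) under 0.05 over all tested genes. Replicates were closest in RANKL and farthest apart in ENRI: replicate 1 minus replicate 2 had an SD over the 16563 genes of 0.699 for ENRI, 0.421 for WENRC and 0.220 for RANKL. The ENRI replicates differed more than those of the other cultures in 7 of the 9 members, Hes1 and Dll4 being the exceptions, and results that turn on 1 of them are given without it. The RANKL libraries are named in the file header as combined reads of a repeat sequencing, so culture and sequencing run cannot be told apart. All 8 M cell markers were called higher in RANKL than in ENRI and 7 of 8 higher than in WENRC; 6 of 8 stem markers were called higher and 6 of 8 enterocyte markers lower in WENRC than in ENRI. Markers of cells from outside the epithelium were uneven. Ptprc of immune cells (3.07 to 4.68), Col1a1 of stroma (2.13 to 2.46) and Cdh5 of endothelium (2.70 to 3.0) were low in all 6 libraries, while Cd68 (7.51 to 8.52), Csf1r (6.78 to 7.51), Acta2 (6.98 to 8.0) and Vwf (6.19 to 7.61) were not. Of the immune, stromal and endothelial lists, 3 of 6, 1 of 6 and 3 of 5 genes passed the filter. Of these, 1 endothelial marker was called higher in RANKL than in ENRI and 1 immune marker higher in WENRC than in ENRI; their part in the results below was not tested. Paneth markers were called higher in RANKL (3 of 5 over each other culture), with a summed level of 11.35 to 11.51 in RANKL, 8.62 to 9.71 in ENRI and 9.02 to 9.60 in WENRC. In such mixed cultures, fewer cells of a type and less RNA per cell cannot be told apart.

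**Figure D1:**
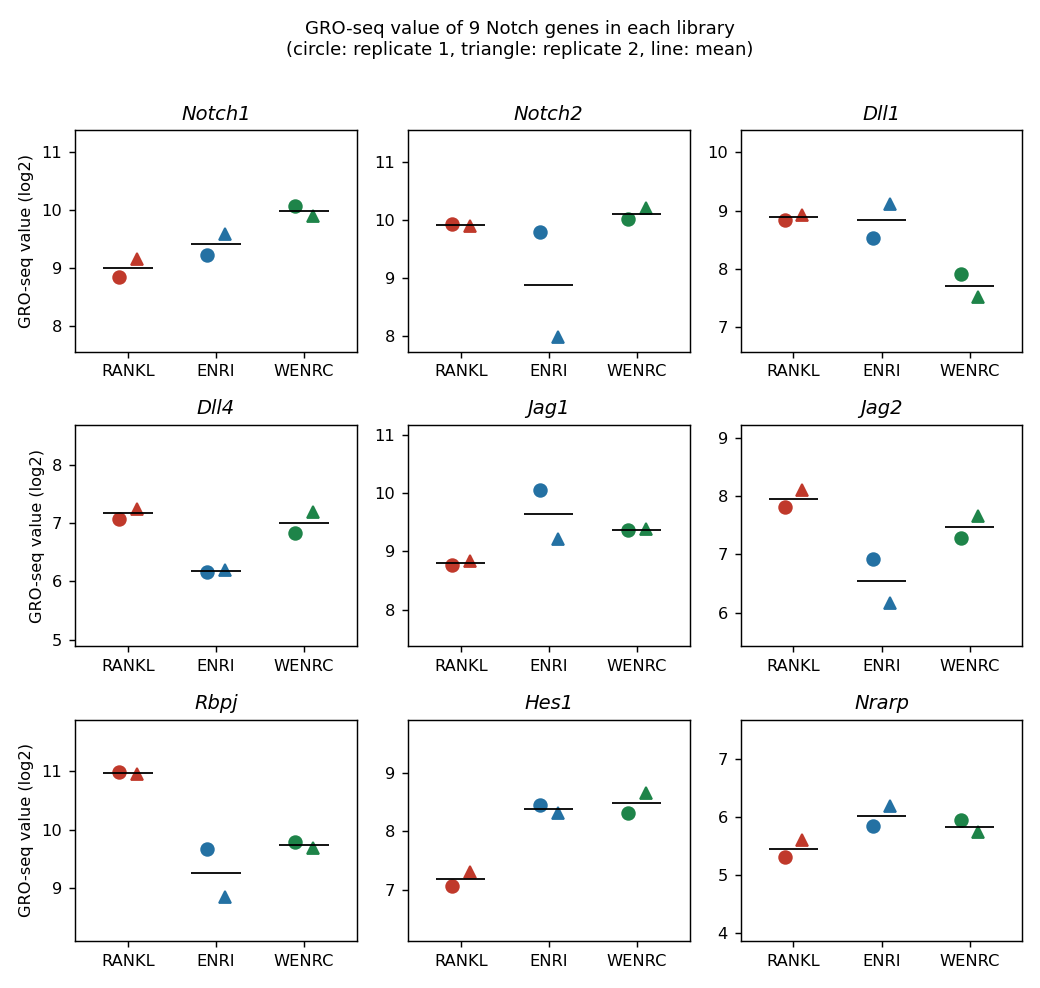
GRO-seq value (log2, vertical axis) of each of the 9 genes in each of the 6 libraries by culture; circles are replicate 1, triangles replicate 2, and lines the mean of 2, and every panel spans the same range of the scale. Hes1 lies lower and Rbpj higher in both RANKL libraries than in all 4 others, and the 2 ENRI libraries lie far apart in Notch2 (9.79 and 7.99).

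Hes1 was the only member called lower in RANKL than in both other cultures, and Rbpj the only one called higher than in both. Notch1, Jag1 and Nrarp also lay lowest, and Jag2 highest, in both RANKL libraries. Hes1 had values of 7.06 and 7.30 in the RANKL libraries, 8.46 and 8.32 in ENRI, and 8.31 and 8.65 in WENRC. Both RANKL libraries were lower than all 4 others, without overlap. Hes1 (NM_008235, mm9 chromosome 16, 30065443 to 30067882, plus strand) encodes the basic helix-loop-helix repressor that is the standard readout of Notch activity in the crypt. Its log2 difference was -1.21 against ENRI (SE 0.19, limma FDR 0.0108) and -1.31 against WENRC (SE 0.19, limma FDR 0.0118), which is 0.431 and 0.405 times the level of each. Between WENRC and ENRI it differed by 0.09 (95% interval -0.36 to 0.55).

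Per kb of gene, Hes1 was transcribed most of the 9 members, with a mean log2 level per kb of 6.73 over the 6 libraries against a median of 3.66 over all tested genes. Its gene is the shortest of the 9 (2439 bp). In the authors' deposited table the Hes1 change was larger: -1.59 against ENRI and -1.72 against WENRC.

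Nrarp, a small ankyrin-repeat protein that is induced by Notch and feeds back to restrain it, had the lowest mean of the members in each culture: 5.30 and 5.60 in RANKL, 5.84 and 6.19 in ENRI, and 5.94 and 5.73 in WENRC. These values are not divided by gene length. Per kb, Nrarp (2574 bp) had a mean of 4.40 over the 6 libraries, above the median of 3.66 over all tested genes. Both RANKL libraries were lower than the other 4, by less than was needed to pass the test. The difference was -0.56 against ENRI (95% interval -1.12 to -0.01, limma FDR 0.131) and -0.38 against WENRC (95% interval -0.93 to 0.17, limma FDR 0.321). The first was -0.74 without ENRI 1 and -0.39 without ENRI 2.

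Rbpj (NM_001080928, chromosome 5, 53947018 to 54048684, plus strand) encodes the DNA-binding protein through which all Notch receptors act, and which recruits corepressors when no Notch is bound. It had values of 10.99 and 10.95 in RANKL, 9.67 and 8.84 in ENRI, and 9.79 and 9.69 in WENRC. The RANKL libraries were higher than the other 4, and ENRI 2 was the lowest. The difference was 1.72 over ENRI (SE 0.27, limma FDR 0.0115) and 1.23 over WENRC (SE 0.27, limma FDR 0.0383), or 3.29 and 2.35 times the level. WENRC and ENRI differed by 0.49 (95% interval -0.17 to 1.15, limma FDR 0.271). This difference was 0.90 without ENRI 1 and 0.07 without ENRI 2. With quantile normalization the difference over WENRC was 0.98, with a limma FDR of 0.0501. As with Hes1, RANKL did not overlap with the rest, but in the opposite direction. The Paneth and M cell markers were also higher in RANKL (M cell markers with a summed level of 12.37 to 12.49, against 8.97 to 9.97 in ENRI and 9.09 to 9.26 in WENRC); their part in the Rbpj and Jag2 results was not tested.

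The receptors differed in where they were lowest. Notch1 (NM_008714, chromosome 2, 26313422 to 26359342, minus strand), the main receptor of crypt progenitors, had 8.84 and 9.15 in RANKL, 9.23 and 9.59 in ENRI, and 10.07 and 9.90 in WENRC. The cultures did not overlap, with RANKL lowest and WENRC highest. RANKL was lower than WENRC by a log2 difference of -0.99 (SE 0.19, limma FDR 0.0254), 0.504 times its level. The neighbours in that order were not separated by the test: RANKL against ENRI gave -0.41 (95% interval -0.87 to 0.05, limma FDR 0.173) and WENRC against ENRI 0.58 (95% interval 0.12 to 1.04, limma FDR 0.0916). Without ENRI 1 the first became -0.59 and the second 0.4, and without ENRI 2 they became -0.23 and 0.76. With quantile normalization the second was 0.77 (limma FDR 0.0337).

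Notch2 (NM_010928, chromosome 3, 97817461 to 97954290, plus strand), the second receptor of the crypt epithelium, stood at 9.94 and 9.89 in RANKL and at 10.01 and 10.20 in WENRC. The ENRI libraries had 9.79 and 7.99. Its low ENRI mean of 8.89 ± 1.27 (SD, n = 2) came from ENRI 2 alone. RANKL against WENRC differed by -0.19 (95% interval -1.50 to 1.12), RANKL against ENRI by 1.03 (limma FDR 0.222) and WENRC against ENRI by 1.22 (limma FDR 0.178). Leaving out ENRI 2 moved the differences from ENRI to 0.13 and 0.32, and leaving out ENRI 1 moved them to 1.93 and 2.12. Which of the 2 ENRI libraries is typical cannot be told from 2 libraries.

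Of the Delta-like ligands, Dll1 was low in WENRC and Dll4 low in ENRI. Dll1 (NM_007865, chromosome 17, 15504318 to 15512787, minus strand) had 8.84 and 8.93 in RANKL, 8.53 and 9.12 in ENRI, and 7.91 and 7.52 in WENRC. The WENRC libraries lay below all others. RANKL was higher than WENRC by 1.17 (SE 0.24, limma FDR 0.0327), 2.25 times its level, and WENRC was lower than ENRI by a log2 difference of -1.11 (SE 0.24, limma FDR 0.0360). RANKL and ENRI differed by 0.06 (95% interval -0.53 to 0.66), and by -0.24 without ENRI 1. The replicate number as a block ended both calls (limma FDR 0.0543 and 0.0580). In summed level, goblet and enterocyte markers were also lowest in WENRC. Of the enterocyte markers, Lct was lowest in RANKL (6.57 and 6.78, against 7.3 and 7.24 in WENRC). Vil1 overlapped between RANKL (11.31 and 11.4) and WENRC (11.5 and 11.13). The goblet summed level was 13.59 to 13.63 in RANKL, 13.27 to 13.80 in ENRI and 10.76 to 11.82 in WENRC, with 4 of 5 called lower in WENRC than in ENRI and 3 of 5 higher in RANKL than in WENRC. The enterocyte summed level was 14.71 to 14.86 in RANKL, 15.49 to 16.21 in ENRI and 12.35 to 13.24 in WENRC, with 6 of 8 called lower in WENRC than in ENRI and 5 of 8 higher in RANKL than in WENRC. The part of both lists in the Dll1 result was not tested.

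Dll4 (NM_019454, chromosome 2, 119151520 to 119161402, plus strand) stood at 7.08 and 7.25 in RANKL and at 6.83 and 7.19 in WENRC. The ENRI libraries had 6.16 and 6.20. Both ENRI libraries lay below the other 4. The difference was 0.99 in RANKL over ENRI (SE 0.20, limma FDR 0.0218), or 1.98 times the level, and 0.83 in WENRC over ENRI (SE 0.20, limma FDR 0.0440), or 1.78 times. The second call was lost with the replicate number as a block (limma FDR 0.0613) and without the filter on low values (0.0551), and the authors' deposited table gave it an adjusted p of 0.0914. RANKL and WENRC differed by 0.15 (95% interval -0.33 to 0.64), and by -0.03 without WENRC 1. Gm14207, on the other strand, overlaps the first 414 bases of Dll4 and was also lowest in ENRI (5.79 and 6.19, against 6.51 to 7.05 elsewhere). Strand handling is not stated, so reads of the overlap cannot be told apart. The summed level of stem markers was lowest in ENRI too, at 12.41 to 13.05 against 14.27 to 14.34 in RANKL and 14.52 to 14.63 in WENRC. Of 8 stem markers, 4 were called higher in RANKL, and 6 in WENRC, than in ENRI. Lgr5 went another way, with 0.10 in RANKL against ENRI (limma FDR 0.748) and -3.02 against WENRC (limma FDR 0.0017). It was the 1 stem marker called in RANKL against WENRC. The part of stem markers in the Dll4 result was not tested.

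Of the Jagged ligands, Jag2 was higher in RANKL than in ENRI, and Jag1 was called in no comparison. Jag2 (NM_010588, chromosome 12, 114146801 to 114167706, minus strand) had 7.81 and 8.11 in RANKL, 6.92 and 6.16 in ENRI, and 7.29 and 7.66 in WENRC. The cultures did not overlap, in the order RANKL, WENRC, ENRI. RANKL was higher than ENRI by 1.42 (SE 0.30, limma FDR 0.0246), 2.68 times its level, and that call was lost with only the 4 libraries compared (limma FDR 0.0571). RANKL against WENRC gave 0.49 (95% interval -0.24 to 1.22) and WENRC against ENRI 0.93 (95% interval 0.20 to 1.66, limma FDR 0.0897). The second was 1.31 without ENRI 1 and 0.55 without ENRI 2.

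Jag1 (NM_013822, chromosome 2, 136907187 to 136942256, minus strand) had 8.76 and 8.84 in RANKL, 10.05 and 9.22 in ENRI, and 9.36 and 9.38 in WENRC. Both RANKL libraries were the lowest, and the ENRI libraries lay on either side of WENRC. The difference from ENRI was -0.83 (SE 0.27, limma FDR 0.0764), which did not pass. It was -1.25 without ENRI 2 and -0.42 without ENRI 1. It passed with the mouse as a block for ENRI and WENRC (limma FDR 0.0405), a block chosen after seeing the data. It did not pass with the replicate number as a block (limma FDR 0.087) or with only the 4 RANKL and ENRI libraries (limma FDR 0.142). The difference from WENRC was -0.57 (95% interval -1.22 to 0.09, limma FDR 0.226). With only the RANKL and WENRC libraries in the fit the same difference had a limma FDR of 0.00811, and the authors' deposited table gave -0.69 with an adjusted p of 0.00500. Jag1 in WENRC and ENRI differed by -0.27 (95% interval -0.92 to 0.39), and by 0.15 without ENRI 1.

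Taken per kb, Jag1 exceeded Jag2 by a log2 difference of 2.38 and 2.31 in the ENRI libraries, 1.32 and 0.98 in WENRC, and 0.20 and -0.02 in RANKL. The pair was thus near equal per kb in RANKL and far apart in ENRI, with no overlap between cultures. Dll1 exceeded Dll4 per kb in all 6 libraries, by 2.6 and 3.14 in ENRI, 1.98 and 1.91 in RANKL, and 1.30 and 0.55 in WENRC. Notch1 exceeded Notch2 per kb in all 6, by 0.48 and 0.84 in RANKL, 1.01 and 3.17 in ENRI, and 1.63 and 1.27 in WENRC. These pairs were set side by side after their values were seen and were not tested.

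**Figure D2:**
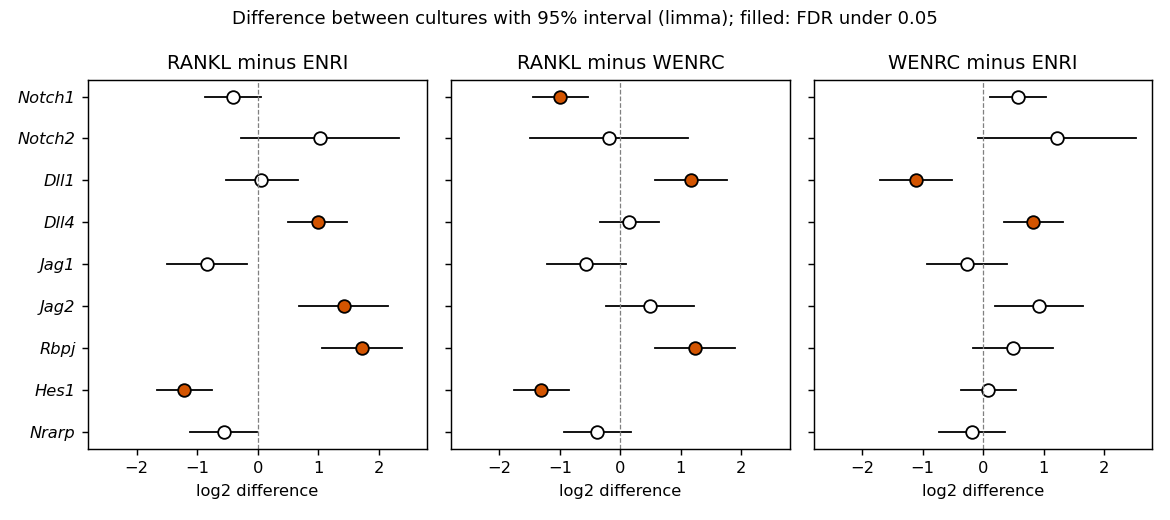
Log2 difference between cultures (horizontal axis) for the 9 genes, with the 95% interval of the limma fit; filled points had an FDR under 0.05. Rbpj and Hes1 are filled in both comparisons of RANKL, on opposite sides of 0, and the interval of Notch2 is the widest in every panel.

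In RANKL against ENRI 4 of 9 members were called, Dll4, Jag2 and Rbpj higher and Hes1 lower, where 20.9% of all tested genes were called (10.4% higher and 10.5% lower). The median change of the members was 0.06, against 0.00 over all tested genes. In RANKL against WENRC 4 were called, Dll1 and Rbpj higher and Notch1 and Hes1 lower, where 12.1% of all genes were called (8.53% higher and 3.62% lower; 70.2% of calls higher, or 53.3% after recentring on upper quartiles, which moved the median of all genes from -0.01 to -0.12). The member median was -0.19. Under quantile normalization 3 members were called there, 1 higher and 2 lower. In WENRC against ENRI 2 were called, Dll4 higher and Dll1 lower, where 14.6% of all genes were called (4.85% higher and 9.74% lower; 33.2% of calls higher, or 54.1% after recentring on upper quartiles and 51.7% with quantile normalization). The member median was 0.49, against -0.01 over all tested genes. The RANKL libraries enter 2 of these comparisons and ENRI and WENRC enter 2 each, so the 3 counts share libraries.

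The number of calls changed with the choice of libraries, among the members and among all 16563 genes alike; the direction of each called member was the same in every setting that was run. Of the 4 members called in RANKL against ENRI, none passed without RANKL 1 (limma FDR 0.107 to 0.130; 111 of all genes called) or without RANKL 2 (0.0902 to 0.185; 64 of all genes), although 4 members had an unadjusted p under 0.05 each time. There, 8 members were called without ENRI 1 (6966 of all genes) and 5 without ENRI 2 (4433). Without either WENRC library 3 were called (1915 and 1929 of all genes), where Jag2 was lost (limma FDR 0.0572 and 0.0567). In RANKL against WENRC, 0 members were called by limma without RANKL 1, RANKL 2, WENRC 1 or WENRC 2, where 0, 0, 262 and 216 of all genes were called, with 4 members at an unadjusted p under 0.05 each time. Without either ENRI library 5 were called there (5152 and 5176 of all genes). In WENRC against ENRI, 0 members were called without RANKL 1, RANKL 2, WENRC 1 or WENRC 2 (0, 0, 39 and 0 of all genes; 4, 4, 3 and 3 members at an unadjusted p under 0.05). Without ENRI 1, 5 were called (6650 of all genes), and without ENRI 2, 4 (3108). With only the 4 ENRI and WENRC libraries 0 members and 0 of all genes were called, and 4 members had an unadjusted p under 0.05. Counts of members thus moved with those of the whole table. A fit without 1 library leaves 1 in its culture, which then adds nothing to the spread estimate. At an adjusted p under 0.05, the authors' deposited table had 4 members in RANKL against ENRI (19.6% of all tested genes), 5 in RANKL against WENRC (27.8%) and 1 in WENRC against ENRI (12.5%). In each mouse, WENRC minus ENRI was 0.68 and 0.99 for Dll4 and -0.62 and -1.60 for Dll1.

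Of 51 further pathway genes listed, 44 were tested; the 7 under the filter were Dll3, Dlk1, Hes3, Hes7, Hey1, Hey2 and Heyl. In RANKL against ENRI 7 of 44 were called higher and 1 lower, with a median of 0.15. In RANKL against WENRC 4 were called higher and 0 lower (17 of either direction at an unadjusted p under 0.05), with a median of 0.22; quantile normalization gave 2 higher and 2 lower. In WENRC against ENRI 1 was called higher and 5 lower, with a median of 0.00, and 4 higher and 4 lower under quantile normalization. In RANKL against ENRI, recentring on upper quartiles gave 9 higher and 4 lower. These shares, 18.2%, 9.09% and 13.6% of the 44, lie close to the shares of all genes.

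Among the nuclear cofactors, 3 of 10 were called higher in RANKL than in ENRI and 2 higher than in WENRC. Of all tested genes, 10.4% and 8.53% were called higher in these comparisons. Kdm5a, a histone demethylase found with Rbpj at silent targets, was higher in RANKL by 0.69 over ENRI and 0.91 over WENRC (limma FDR 0.0376 and 0.0244). Snw1, a splicing factor that also binds Rbpj, was higher than in ENRI by 0.47 (limma FDR 0.0453). With only the 4 RANKL and ENRI libraries in the fit, Kdm5a and Snw1 lost their calls over ENRI (limma FDR 0.072 and 0.090).

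Some genes of receptor processing were called. Adam10, the protease of the first ligand-induced cut, was higher in RANKL than in ENRI by 0.70 (limma FDR 0.0413). With only the 4 RANKL and ENRI libraries in the fit, that call was lost (limma FDR 0.080). Lfng, the Fringe glycosyltransferase that tunes which ligands Notch answers to, was lowest in ENRI (6.40, against 7.24 in RANKL and 7.67 in WENRC). RANKL over ENRI was 0.84 (limma FDR 0.0304) and WENRC over ENRI 1.27 (limma FDR 0.0153). The first of these Lfng calls was also lost with only the 4 RANKL and ENRI libraries in the fit (limma FDR 0.079). Furin, the convertase that matures the receptor, was lower in WENRC than in ENRI by a log2 difference of -0.70 (limma FDR 0.0396). Of the 15 processing genes, 2 were called higher in RANKL than in ENRI, and 1 higher and 2 lower in WENRC than in ENRI. These are 13.3% and 20% of the 15, where 20.9% and 14.6% of all tested genes were called. In RANKL against WENRC 0 of the 15 were called, where 12.1% of all tested genes were.

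Among genes of ligand and receptor traffic, Dtx1, a Deltex ubiquitin ligase and Notch-responsive gene, was higher in RANKL by 1.63 over ENRI and 1.85 over WENRC (limma FDR 0.0166 and 0.0158). Dtx3 was higher in RANKL by 1.32 over ENRI (limma FDR 0.0287). The Dtx3 call was lost with only the 4 RANKL and ENRI libraries in the fit (limma FDR 0.069). Neurl1b, a ligase that acts on Delta ligands, was lowest in WENRC: RANKL was 1.75 higher (limma FDR 0.0230) and the difference from ENRI was -1.55 (limma FDR 0.0310). Numb, an endocytic inhibitor of Notch, differed by -1.51 between WENRC and ENRI (limma FDR 0.0206). Hes2, a Hes family gene, was high in ENRI alone: 6.89 and 8.06 there, 4.69 and 4.52 in RANKL, and 4.76 and 4.40 in WENRC, a difference of -2.87 in RANKL and -2.90 in WENRC (limma FDR 0.00800 and 0.0129). Hes2 and Hes1 thus had different orders: Hes1 was high in ENRI and WENRC alike.

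**Figure D3:**
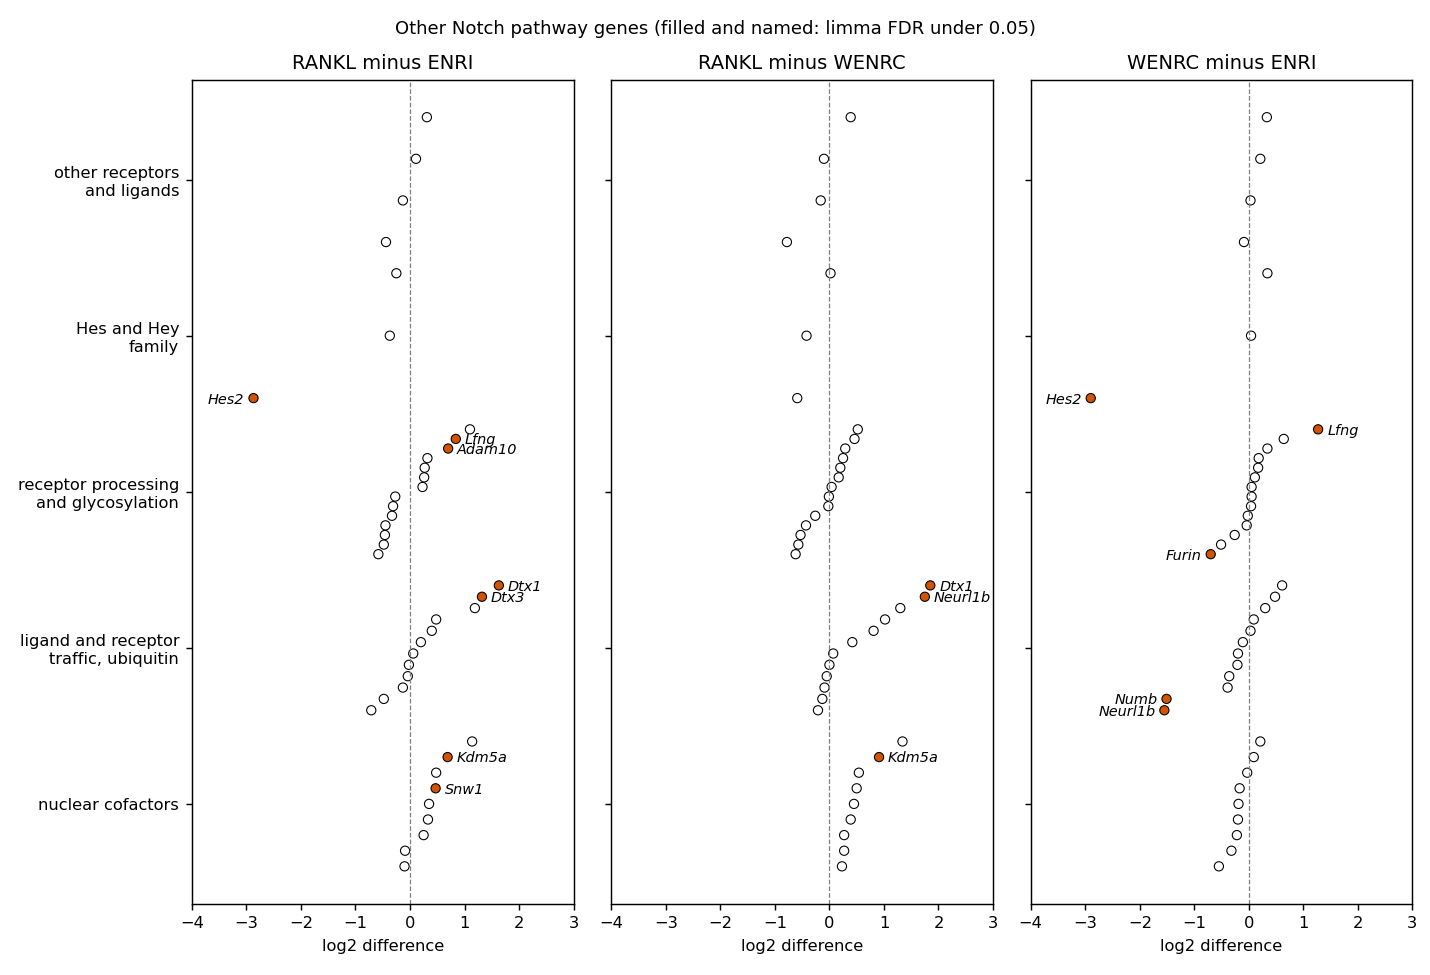
Log2 difference between cultures (horizontal axis) for other tested pathway genes that are reported here, each a point, in 5 groups by role; filled and named points had a limma FDR under 0.05. Hes2 lies farthest from 0, at -2.87 and -2.90 in the comparisons with ENRI, and the called nuclear cofactors all lie above 0 in RANKL. Of the calls among all tested genes, 49.6% were higher in RANKL against ENRI and 70.2% in RANKL against WENRC.

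Of the genes that act downstream in secretory fate, Atoh1, the factor that Hes1 represses, stood at 4.07 ± 0.26 in RANKL, 3.95 ± 0.07 in ENRI and 3.86 ± 0.12 in WENRC (SD, n = 2). Its difference was 0.11 from ENRI and 0.21 from WENRC (limma FDR 0.725 and 0.556), at levels close to the filter (a linear value of 10). Spdef, a goblet and Paneth cell factor, was 0.89 higher in RANKL than in ENRI (limma FDR 0.0320) and 0.85 higher than in WENRC without passing (0.0508). With only the 4 RANKL and ENRI libraries in the fit, the Spdef call over ENRI was lost (limma FDR 0.065). Neurog3, the endocrine progenitor factor, had 4.02 ± 0.51, 3.16 ± 0.01 and 3.56 ± 0.27 in RANKL, ENRI and WENRC and was called in no comparison. Gfi1 was under the filter.

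Over the 6 libraries, the genes with patterns most like each called member were found by Pearson's r, as a description only: with 16563 genes and 3 cultures, high r is common and the libraries are shared. Hes1 was followed most closely by Ereg (r of 0.993) and Epb41l4a (0.992), which were also low in RANKL alone; Ereg had 4.77 and 4.99 there and 7.29 to 8.35 elsewhere. Cftr was close to Rbpj (0.997). Notch1 was nearest to Gli1 (0.996) and Zfp27 (0.994), Dll4 to Dagla (0.993) and Mcf2l (0.992), Dll1 to Phldb1 (0.999) and Wdr7, and Jag2 to Thap3 and Zfp932 (0.997).

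The ChIP-seq tables list where the repressive mark differed between RANKL and WENRC. The values are the authors' tags per region, with WENRC scaled to the RANKL depth, and the authors' fold; each table holds 1 direction, and there is no replicate check. Across the starts of Jag2 and Notch1 there was more of the mark in RANKL. At Jag2 a region of 1763 bp (mm9 chromosome 12, 114166519 to 114168282), from 576 bases upstream to 1187 downstream of the annotated start, had 98 tags in RANKL against 20.7 in WENRC (authors' fold 4.73). A second region in intron 2 (114165315 to 114165815) had 20 against 4.5 (fold 4.44). At Notch1 a region of 1294 bp (chromosome 2, 26358503 to 26359797), from 455 bases upstream to 839 downstream, had 59 tags against 22.5 (authors' fold 2.62). Another region in intron 4 of Notch1 (26338722 to 26340126), assigned by the authors to Mir6996, had 51 against 21.6 (fold 2.36). The promoter stretches shown above for these 2 genes are of another build; that both builds place the start at the same base was not checked.

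Transcription of the 2 genes did not go the same way beside this mark. Notch1 was lower in RANKL than in WENRC (-0.99), and Jag2 had a difference of 0.49 in the direction of RANKL, which did not pass.

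Nrarp had 2 RANKL-higher regions and no WENRC-higher one: 25037413 to 25037913 on chromosome 2, in the 3' UTR, with 20 tags against 4.5 (fold 4.44), and 25039238 to 25039738, just past the gene's end, with 19 against 6.3 (fold 3.02). Notch2 had regions of both kinds. The RANKL-higher ones were an intergenic region 28.8 kb upstream (chromosome 3, 97787775 to 97789587; 83 tags against 24.3, fold 3.41) and 3 regions in intron 1, at 0.6, 30.9 and 33.3 kb from the start, with 19 to 25 tags against 5.4 to 7.2. The WENRC-higher one lay 1.7 kb upstream (97815533 to 97816033), with 7 tags in RANKL against 23.4.

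Hes1 had only WENRC-higher regions, both intergenic and downstream of the gene: 8.2 kb from the start (chromosome 16, 30073341 to 30074010; 5 tags in RANKL against 24.3, authors' fold 4.86) and 26.5 kb from it (30091741 to 30092241; 6 against 18.9, fold 3.15). So Hes1 was transcribed less in RANKL, and the regions assigned to it had less H3K27me3 in RANKL; neither touches the gene. Jag1 had 2 regions of each kind, all intergenic and 182.0 to 399.6 kb from its start. Dll1, Dll4 and Rbpj had no region in either table, which lists only regions past the authors' threshold and so does not give the level of the mark there.

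**Figure D4:**
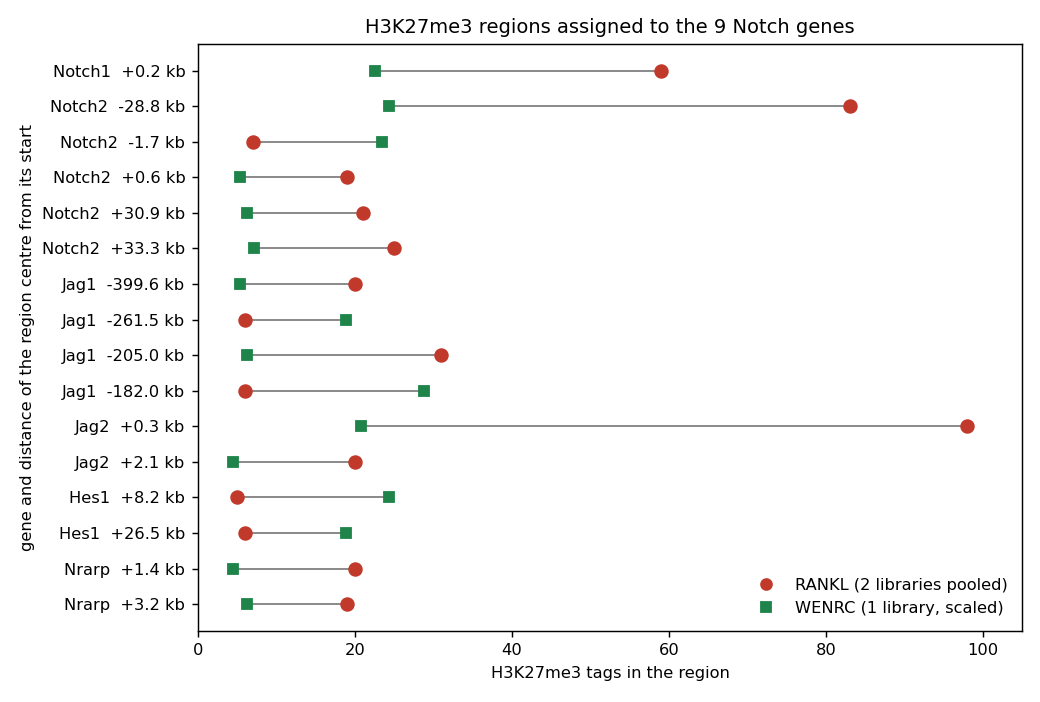
H3K27me3 tags (horizontal axis) in pooled RANKL (circles) and in WENRC scaled to the RANKL depth (squares) for the 16 regions assigned to the members, labelled by gene and by distance in kb of the region's centre from the start. The regions across the starts of Jag2 (98 against 20.7) and Notch1 (59 against 22.5) and the one 28.8 kb upstream of Notch2 (83 against 24.3) hold the most tags.

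In all, 5 of 9 members had a RANKL-higher region at any distance, where 32.3% of tested genes had one; 4 had one within 5 kb of the start (18.0% of tested genes) and 2 had one across the start (6.97%). WENRC-higher regions were assigned to 3 members (23.3%), within 5 kb to 1 (5.01%) and across the start to 0 (0.32%). With 9 genes these counts are a description. Of the 44 other pathway genes, 9 had a RANKL-higher region within 5 kb and 2 a WENRC-higher one. Notch3, the receptor gene best known from vascular smooth muscle, had the highest fold of these RANKL-higher regions (chromosome 17, 32302432 to 32304153; 86 tags against 13.5, authors' fold 6.37). Dtx1, transcribed more in RANKL, had 3 RANKL-higher regions within 5 kb, with authors' folds of 2.3, 2.6 and 4.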

How the data were processed

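GRO-seq of 3 cultures (2 libraries each) and H3K27me3 ChIP-seq of RANKL and WENRC were deposited as processed tables on mm9. Per the file headers, gene values came from HOMER over whole RefSeq genes, 1 transcript per gene. The submitters' processing notes name Bowtie2 2.3.4.1, HOMER and DESeq2. Read filters and strand handling are not given in the sources used here. The authors deposited log2 values with the shape of a regularized logarithm, and log2 fold changes with p-values and adjusted p-values; their sign was turned to the first-named culture minus the second. GRO-seq depth is unknown, so no counting error can be given. For H3K27me3, per the file headers, the authors gave whole RANKL tag counts and a WENRC signal scaled by 0.9 to the RANKL depth (32.7 M tags; WENRC had 36.3 M). They also gave the fold between these (floor 0.5 tags) and a p-value. The 2 RANKL libraries were pooled, and 12 blank rows were dropped.

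Genes with a linear value of at least 10 in at least 2 libraries were tested (16563) with limma 3.58.1 (R 4.3.3), 3 culture means, a variance trend and Benjamini-Hochberg adjustment over all of them; the script was tested on simulated data. The 2131 genes at 0 in all libraries and 26 symbols turned into dates name no member. Per kb, values were divided by the length of the whole gene interval on the linear scale. Replicate numbers pair ENRI and WENRC, whose same-numbered libraries come from 1 mouse per the labels (r of deviations 0.414); RANKL shares only a number (r of -0.205 with ENRI and -0.323 with WENRC).

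Named genes were the 9 members, the called genes of the other Notch lists (up to 10 per comparison), Atoh1, Gfi1, Spdef and Neurog3, 2 pattern-like genes per called member, and defining markers. The members and lists were chosen with earlier results of these data known. Alternatives covered the filter, normalization, variance trend, libraries in the fit, replicate block, each library left out, the authors' own calls, and the fold and distance of regions. Some results for single genes under this rule are not reported here.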

Additional observations from a re-analysis of the deposited data

How the results depend on the processing

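Leaving out 1 library at a time gave 0 to 8 members called in RANKL against ENRI, 0 to 5 in RANKL against WENRC and 0 to 5 in WENRC against ENRI; of all 16563 genes, 64 to 6966, 0 to 5176 and 0 to 6650 were called in the same fits. For the other pathway genes the ranges were 0 to 17, 0 to 18 and 0 to 11. Such fits leave 1 library in a culture, which is assumed to vary like the others. With only the 4 libraries compared, other pathway calls were 3 in RANKL against ENRI, 19 in RANKL against WENRC and 0 in WENRC against ENRI, and members 0 in the last (limma; 4 members and 6 other genes at an unadjusted p under 0.05). The authors' table had 5 and 17 other genes in the first and second comparison and 1 member in WENRC against ENRI. No filter left 1 member in WENRC against ENRI, and upper-quartile recentring gave 13 other genes in RANKL against ENRI. Of the H3K27me3 regions, a fold of at least 4 kept 4 of 11 RANKL-higher and 2 of 5 WENRC-higher ones. A start within 5 kb kept 6 and 1, and overlap with the gene left 0 WENRC-higher ones. The cause was not tested.

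With the replicate number as a block over all 6 libraries, 4, 3 and 0 members were called in the 3 comparisons (5 at an unadjusted p under 0.05 in the last), and other pathway calls were 5 in RANKL against ENRI and 3 in WENRC against ENRI. In the block with only 4 libraries, WENRC against ENRI had 0 members and 0 other genes (3 and 6 at an unadjusted p under 0.05). The added blocks were chosen after seeing the data. A block by mouse for ENRI and WENRC alone gave 7 other genes in RANKL against WENRC, and the pairing with RANKL numbers crossed gave 0 members in WENRC against ENRI (4 at an unadjusted p under 0.05).

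Directions turned in 8 values, of changes that were not called with all libraries. Leaving out 1 library at a time gave ranges of -0.07 (without RANKL 2) to 0.30 for Atoh1 and -0.24 (without ENRI 1) to 0.36 for Dll1 in RANKL against ENRI, and -0.03 (without WENRC 1) to 0.33 for Dll4 in RANKL against WENRC. In WENRC against ENRI they were -0.08 (without WENRC 2) to 0.26 for Hes1, -0.68 to 0.15 (without ENRI 1) for Jag1, and -0.13 (without ENRI 1) to 0.22 for Spdef, which was also at -0.10 without WENRC 1. Atoh1 in WENRC against ENRI was at 0.02 with upper-quartile recentring. The cause was not tested. With 2 libraries a culture and unknown GRO-seq depth, differences inside the 95% intervals given above could not be resolved.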
